A study of Mus musculus with 4 samples.

Results

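The beta crystallins are structural proteins of the eye lens, encoded in the mouse by Cryba1, Cryba2 and Cryba4 (the acidic group) and Crybb1, Crybb2 and Crybb3 (the basic group). They were followed here through every probe set whose platform annotation names exactly 1 of these 6 genes. That rule gave 6 probe sets, 1 per gene, of the 45101 on the array, or 6 of the 18193 genes with a probe set of their own. RNA of whole newborn lenses was read on Affymetrix arrays for the mouse, 1 for each sample and 2 for each group, which give 1 intensity for every probe set. One group, called knockout below, came from mice lacking Hsf4, and the other from wild-type mice. Both groups had the 129S3 background and were 0.5 days old, and the labels call all animals male. The labels do not give the deleted part of Hsf4, and do not say whether lenses were pooled or whether the arrays numbered 1 and 2 came from separate animals. The p-values therefore measure only how far these arrays differ among themselves, and that spread may be technical.

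Beta crystallins fold into domains built of Greek key motifs, a fold they share with the gamma crystallins. Acidic and basic members pair into dimers and larger assemblies and stay soluble at the very high protein concentration of lens fibre cells, which gives the lens its refractive power. Hsf4 encodes heat shock transcription factor 4, which binds heat shock elements in DNA and whose loss is known to cause cataract in mice. The comparison asks whether the RNA of these genes differed when Hsf4 was absent.

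Some differences among the arrays followed the array number and others the genotype labels. The median deposited intensity over non-control probe sets was 18.4 and 6.56 on knockout arrays 1 and 2, against 21.3 and 10.4 on wild-type arrays 1 and 2. A control probe set for 18S ribosomal RNA read 16.7 and 3636 on knockout arrays 1 and 2 after quantile normalization, against 14.3 and 432 on wild-type arrays 1 and 2. Xist, which female cells transcribe, read 359 and 4.48 on the knockout arrays and 918 and 39.4 on the wild-type arrays at its brightest probe set, so the label of male sex was in doubt for the arrays numbered 1. The single Hsf4 probe set read 1597 and 141 on the knockout arrays, against 767 and 99.3 on the wild-type arrays. Within each number it was brighter on the array labelled knockout, while the groups overlapped. Its place relative to the deletion is not stated in the labels. It therefore cannot show whether the genotype labels are right, and that was not tested. Every direction below refers to the arrays as labelled. All 12 lens fibre markers and all 7 lens epithelium markers with a probe set were above the filter on dim signals. That filter passed 22519 of the 45037 non-control probe sets. All 11 striated muscle and all 7 neural retina markers with a probe set passed it too, so it does not single out lens tissue. Striated muscle markers were dimmer in knockout with no overlap of the groups for 11 of 11 genes, where 14.4% of all 22519 probe sets tested stood lower without overlap, with summed normalized intensities of 145 and 144 on the knockout arrays and 2899 and 1432 on the wild-type arrays. Fibroblast and pericyte markers were dimmer with no overlap for 7 of 9 genes, against 14.4% of all probe sets tested that stood lower without overlap, and had sums of 1535 and 1228 in knockout and 2099 and 2554 in wild type. In whole lenses, fewer cells of a type and less RNA per cell cannot be told apart, and the part of these differences in the beta crystallin values was not tested.

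The promoters of 4 of the genes are shown because the comparison concerns a factor that binds DNA, and because these 4 cover the range of motifs found. All 6 genes matched an entry of the RefSeq promoter table (build GRCm38.p6), each giving 250 bases before and 50 after an annotated start site. Capitals mark a heat shock element of 2 units (GAANNTTC or TTCNNGAA), a TATA box (TATAAA), a short Maf site (TGCTGA) or the core of a full Maf recognition element. Each was searched on both strands, and none of the matches overlapped another. Cryba1 lies at chr11:77725244-77725543 on the minus strand, Cryba2 at chr1:74893094-74893393 on the minus strand, Crybb1 at chr5:112255570-112255869 on the plus strand and Crybb2 at chr5:113070068-113070367 on the minus strand.
Cryba1: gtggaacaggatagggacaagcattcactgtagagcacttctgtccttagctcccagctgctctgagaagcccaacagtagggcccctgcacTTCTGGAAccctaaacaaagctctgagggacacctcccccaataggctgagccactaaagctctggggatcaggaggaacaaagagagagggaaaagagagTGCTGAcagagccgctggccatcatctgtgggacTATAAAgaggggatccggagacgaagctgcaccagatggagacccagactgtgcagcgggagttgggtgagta
Cryba2: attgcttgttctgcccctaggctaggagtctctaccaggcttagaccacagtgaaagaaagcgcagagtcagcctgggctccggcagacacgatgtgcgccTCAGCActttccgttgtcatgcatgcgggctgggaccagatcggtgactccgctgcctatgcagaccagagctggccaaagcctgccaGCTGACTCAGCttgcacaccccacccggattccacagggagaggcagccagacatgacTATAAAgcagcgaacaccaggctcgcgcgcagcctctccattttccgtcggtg
Crybb1: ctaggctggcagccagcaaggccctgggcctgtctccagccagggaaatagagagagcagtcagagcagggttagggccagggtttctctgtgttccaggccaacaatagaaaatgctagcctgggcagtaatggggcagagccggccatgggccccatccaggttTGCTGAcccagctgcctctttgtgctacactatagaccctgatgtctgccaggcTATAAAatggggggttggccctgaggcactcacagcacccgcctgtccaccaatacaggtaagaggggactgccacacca
Crybb2: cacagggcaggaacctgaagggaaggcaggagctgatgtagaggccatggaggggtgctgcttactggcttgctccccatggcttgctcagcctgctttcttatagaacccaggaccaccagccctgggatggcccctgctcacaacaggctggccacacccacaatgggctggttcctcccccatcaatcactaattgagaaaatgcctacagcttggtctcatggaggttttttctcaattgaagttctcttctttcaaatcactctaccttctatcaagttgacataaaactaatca

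A heat shock element of 2 units was found in 1 of the 6 promoters, that of Cryba1, 158 to 151 bases before the start site. The same motif was present in 15.1% of the 32851 promoters in the table. A stricter heat shock element, with a further unit at the same spacing and so 3 units, was found in 0 of the 6 and in 0.603% of all promoters. The short Maf site, a piece of the element bound by the lens factor c-Maf, was present in 5 of the 6 promoters and in 19.5% of all, and Crybb2 was the one without it. Cryba4 held 3 copies, starting 182, 135 and 77 bases before its start site. Cryba2 was the only member with the full core, GCTGACTCAGC, which 0.0517% of all promoters hold. The TATA box letters stood in the windows of Cryba1, Cryba2 and Crybb1 and in 13.6% of all promoters, 23 and 30 bases before the start site in Cryba1 and Crybb1 but across the start site in Cryba2. The Crybb2 window matched none of the motifs searched. These matches describe letters in a window and say nothing about binding.

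The beta crystallins are partly clustered in the genome. Cryba4 and Crybb1 lie on opposite strands of chromosome 5 with start sites 3302 bases apart. On the same chromosome Crybb2 and Crybb3 lie on 1 strand with start sites 11467 bases apart, while Cryba1 is on chromosome 11 and Cryba2 on chromosome 1.

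Of the 6 genes, 5 were among the brightest probe sets on every array, and none of those 5 differed between knockout and wild type beyond the spread of the arrays. Crybb2 was the exception in level and in spread. It was bright on both arrays numbered 1 and much dimmer on both arrays numbered 2, most of all on knockout array 2. None of the 6 passed the threshold of an adjusted p of 0.05 in limma's moderated test, against 0.0178% of the 22519 probe sets tested. All 6 passed the filter on dim signals.

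Among the acidic members, Cryba1 gives rise to both the betaA3 and the betaA1 protein from 1 messenger RNA through alternative start codons. Its deposited intensity was 11211 and 7055 on knockout arrays 1 and 2, against 11249 and 7887 on wild-type arrays 1 and 2. The groups overlapped, and the value followed the array number far more than the genotype. Its rank among the 45037 non-control probe sets, counted from the brightest, was 5 and 3 in knockout and likewise 5 and 3 in wild type. Quantile normalization sets a value by its rank, so the normalized log2 change was 0.00 (SE 0.14, limma), with a 95% interval from -0.32 to 0.32, and this zero was fixed by the tied ranks.

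Cryba2, an acidic member of the same fold, measured 9881 and 5791 on the knockout arrays, against 10087 and 6069 on the wild-type arrays. Within each number the knockout value was slightly the lower as deposited. Its ranks were 14 and 9 in knockout and 16 and 19 in wild type, so in rank the knockout arrays stood higher without overlap. After quantile normalization Cryba2 averaged 8249 ± 294 in knockout and 7697 ± 149 in wild type (SD, n = 2 each), a log2 change of 0.10 (SE 0.15, limma, adjusted p = 1). The change was -0.05 with the values as deposited, so no direction is given for it.

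Cryba4, the remaining acidic member and one in which mutations are known to cause cataract, read 10391 and 4895 in knockout, against 10677 and 5506 in wild type. It lost more signal on the arrays numbered 2 than Cryba1 or Cryba2 did, in both genotypes. Its ranks were 10 and 24 in knockout and 12 and 30 in wild type. The normalized log2 change was 0.05 (SE 0.16, limma), with an interval from -0.32 to 0.41 and overlapping groups. Leaving out knockout array 1 gave -0.06 and leaving out wild-type array 2 gave -0.07.

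Of the basic members, Crybb1, a major betaB protein with long terminal extensions, measured 10334 and 7134 on the knockout arrays, against 10291 and 6590 on the wild-type arrays. It was the only one of the 6 genes with the higher deposited value on the knockout array within both numbers, by 0.01 and 0.11 on the log2 scale. On knockout array 2 it ranked 2, against 12 on knockout array 1, and it ranked 15 and 12 on the wild-type arrays. The normalized log2 change of 0.17 (SE 0.16, limma, adjusted p = 1) had a 95% interval from -0.18 to 0.53 that included 0.

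Crybb3, a further basic member, read 10346 and 5558 on the knockout arrays, against 10753 and 7095 on the wild-type arrays. Within number 2 this was 0.78 of the wild-type value and within number 1 it was 0.96. Its ranks were 11 and 12 in knockout and 10 and 7 in wild type, so knockout stood slightly lower in rank without overlap. The normalized log2 change was -0.05 (SE 0.14, limma), with an interval from -0.37 to 0.28, and scaling by the median, the trimmed mean, the 99th percentile or the 100 brightest other probe sets turned its sign.

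**Figure D1:**
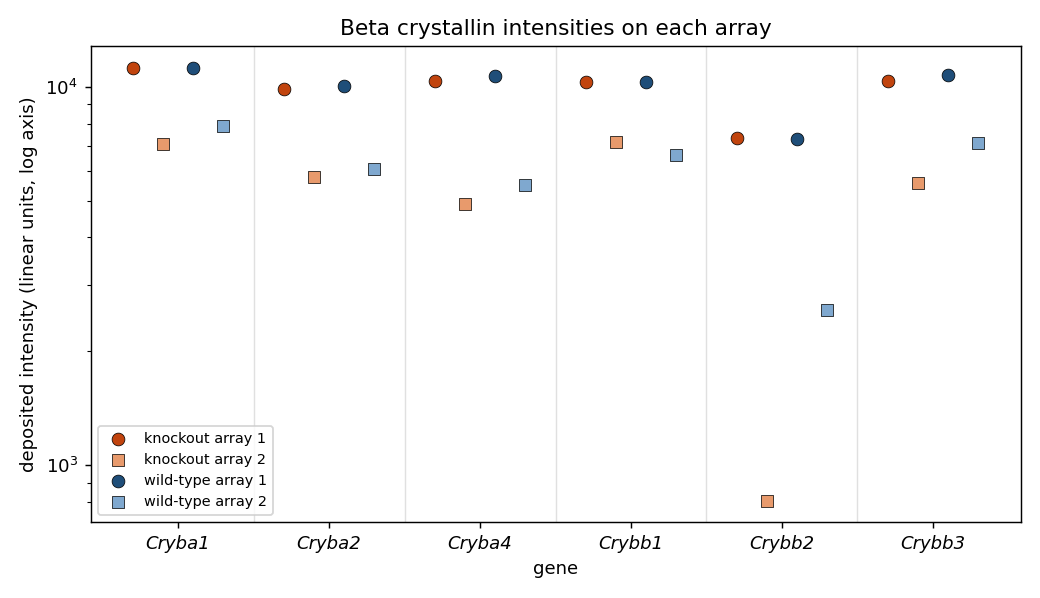
Deposited intensity (linear units on a log axis) of each beta crystallin probe set on knockout arrays 1 and 2 and wild-type arrays 1 and 2, with 1 point per array and no error bars. Of the 6 genes, 5 sit between 4895 and 11249 on all arrays, while Crybb2 drops to 807 (knockout) and 2572 (wild type) on the arrays numbered 2; levels of different probe sets are not comparable as amounts of RNA.

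Crybb2 encodes betaB2, a basic crystallin that in rodents is known to build up in the lens after birth and that is mutated in the Philly mouse cataract. Its deposited intensity was 7347 and 807 on knockout arrays 1 and 2, against 7271 and 2572 on wild-type arrays 1 and 2. The arrays numbered 1 were nearly equal, and those numbered 2 were both low, with knockout array 2 the lower. Array 1 was 9.11-fold brighter than array 2 in knockout and 2.83-fold brighter in wild type. For the other 5 genes the same ratio ran from 1.45 to 2.12 in knockout and from 1.43 to 1.94 in wild type.

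In rank Crybb2 stood at 56 and 381 on knockout arrays 1 and 2, against 90 and 218 on wild-type arrays 1 and 2. The ranks of the other 5 genes stayed between 2 and 30 on all 4 arrays. Other bright probe sets had a spread in rank nearly as wide. Of the 134 probe sets that ranked within 100 on at least 1 array, a limit chosen after the values were seen, 68 did so on all 4. Among the others, Bfsp1 had 94 as its best rank and 369 as its lowest, and Cox5b, a subunit of cytochrome c oxidase, had 91 and 325. Bfsp1 ranked 350 and 369 in knockout and 94 and 188 in wild type, so its spread lay mostly between the genotypes. Cox5b had a deposited log2 difference of 0.14 within number 1 and -1.45 within number 2, close to the values of Crybb2 given next. Bfsp1 and Cox5b were named after their values were seen. Of the 134, only Crybb2 itself fell as low as rank 381.

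**Figure D2:**
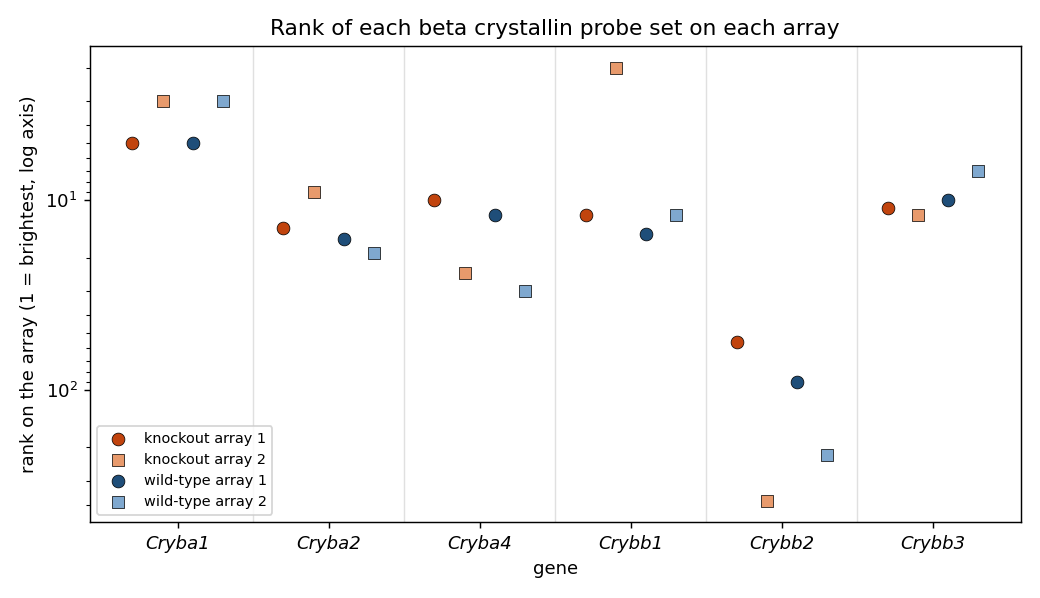
Rank of each beta crystallin probe set among the 45037 non-control probe sets (1 is the brightest; log axis, brightest at the top) on the 2 knockout and 2 wild-type arrays. The points of 5 genes lie between ranks 2 and 30, and those of Crybb2 lie between 56 and 381, lower on the arrays numbered 2 in both genotypes.

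The knockout to wild-type difference of Crybb2 thus depended on the array number. On the deposited log2 scale it was 0.01 within number 1 and -1.67 within number 2, where wild-type array 2 was 3.19-fold the brighter. After quantile normalization it was 0.16 within number 1 and -0.68 within number 2. The pooled normalized change was -0.26 (SE 0.43, limma, adjusted p = 1), with a 95% interval from -1.22 to 0.71 that includes both a fall and a rise. With 1 array per genotype and number, whether the difference itself changes with the number could not be tested.

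Single arrays decided the Crybb2 value. Without knockout array 1 the change was -1.03 (SE 0.25) and limma's adjusted p was 0.00626, in a fit where 1.98% of the 22519 probe sets passed as lower and the lone knockout array was assumed to vary like the others. Leaving out wild-type array 2 gave -0.61, leaving out wild-type array 1 gave 0.10, and leaving out knockout array 2 gave 0.52, none of these past the threshold. On knockout array 2 the ratio of 3' to 5' signal was 1.89 for the actin control and 1.05 for the Gapdh control, against 1.51 to 1.67 and 0.856 to 0.902 on the other arrays. Neural retina markers were also low on knockout array 2, though not on wild-type array 2. The summed normalized intensity of the 7 markers tested, of 9 in the list, was 1755 and 527 on knockout arrays 1 and 2, against 1690 and 1769 on wild-type arrays 1 and 2. Within number 2 the normalized log2 difference was -1.39 for Neurod1, -2.15 for Neurod4, -1.73 for Nrl and -1.68 for Rlbp1. Within number 1 it was -0.06, 0.10, 0.12 and 0.22. For Crx, Rcvrn and Pde6b it was -0.74, -1.38 and -1.55 within number 2, against 0.05, -0.32 and 0.41 within number 1. All but Rcvrn were named after their values were seen. Rcvrn, the recoverin gene of photoreceptors, read 1.54 on knockout array 2. The 5 erythroid markers with a probe set, of 9 in the list, had sums of 135 and 514 on the knockout arrays, against 91.7 and 158 on the wild-type arrays. The part of these differences, or of the 3' to 5' ratios, in the low Crybb2 value was not tested.

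Crybb2 was also low against probe sets of similar brightness on the same arrays. Within number 2 its log2 ratio of -1.67 compared with a median of -0.94 and a 10th percentile of -1.34 over 148 other probe sets in the same interval of mean log2 intensity. Within number 1 its ratio of 0.01 compared with a median of -0.13 and a 90th percentile of -0.02 over 102 such probe sets, so it stood slightly high there. That was not particular to Crybb2. Within number 1 every member stood above the median of its interval, by 0.05 for Crybb3 to 0.14 for Crybb2. Crybb1 also lay above the 90th percentile of its interval, which held 30 other probe sets. Cryba4, the most variable of the other 5 genes between numbers, had -0.17 within number 2, where 44 probe sets of similar brightness had a median of -0.34. The other members were too bright on the arrays numbered 2 for such a comparison, with only 8 other probe sets in their interval.

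**Figure D3:**
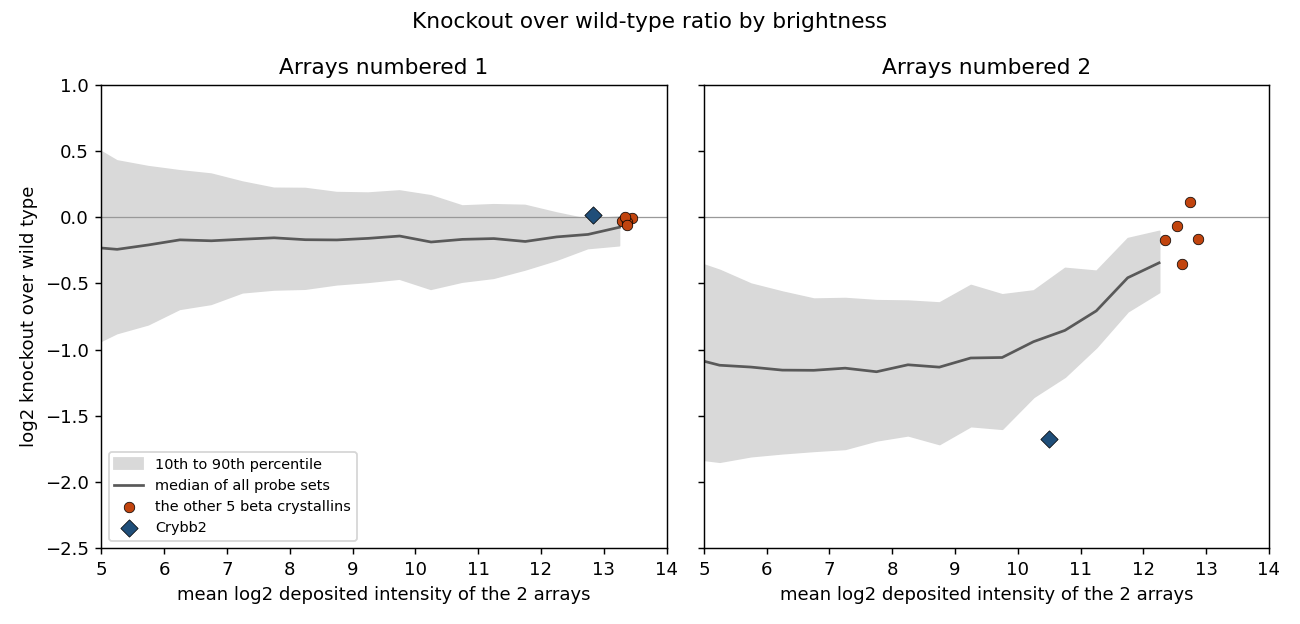
Log2 ratio of knockout over wild-type deposited intensity against the mean log2 intensity of the same 2 arrays, for arrays numbered 1 (left) and 2 (right). The line is the median and the band the 10th to 90th percentile over probe sets in intervals of brightness holding at least 20; in number 2 the median lies at -1.17 around a mean log2 of 7.75 and at -0.34 in the brightest interval drawn, Crybb2 (diamond) lies at -1.67, and the other 5 genes (circles) lie between -0.35 and 0.11.

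The ratio of knockout over wild type depended on brightness itself on the arrays numbered 2. There it was 0.629 at the median of all probe sets, 0.491 at the 99th percentile and 1.00 at the maximum. On the arrays numbered 1 the same ratios were 0.865, 0.886 and 0.987. The 5 bright genes stood at 59.2% to 95.5% of their array's maximum. No single scale factor per array brings both the median ratio and the ratio at the maximum to 1. The changes of the 5 bright genes were positive under each scale factor tried, and the choice of factor altered their size. With the values as deposited, and so with no factor, all of these but Crybb1 were negative.

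As a mean over the 6 genes, the log2 change was 0.00 after quantile normalization and -0.20 with the values as deposited. It was 0.24 with median scaling, 0.43 with trimmed-mean scaling and 0.40 with scaling to the 99th percentile. These values cannot be read alone, because the median of all probe sets tested was itself -0.42 with the values as deposited and -0.13 with median scaling. Relative to that median the family mean was 0.22 with the values as deposited and 0.37 with median scaling. Scaling to the 100 brightest other probe sets, added after the values were seen, gave a family mean of 0.08, or 0.33 relative to the median of all tested. Relative to the same median, the mean of the 5 genes without Crybb2 ran from 0.06 after quantile normalization to 0.54 with trimmed-mean scaling, while Crybb2 ran from -0.40 with the values as deposited to -0.21 with trimmed-mean scaling. The family mean taken alone was negative with the values as deposited and positive with each scale factor. Relative to the median of all tested, it was positive with each scaling and near 0 after quantile normalization (0.01). That relative value was -0.002 with no filter on dim signals. It fell to -0.11 once knockout array 1 was dropped, and to -0.06 once wild-type array 2 was dropped instead. No direction is given for the family, since single arrays turned the sign of the relative value.

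**Figure D4:**
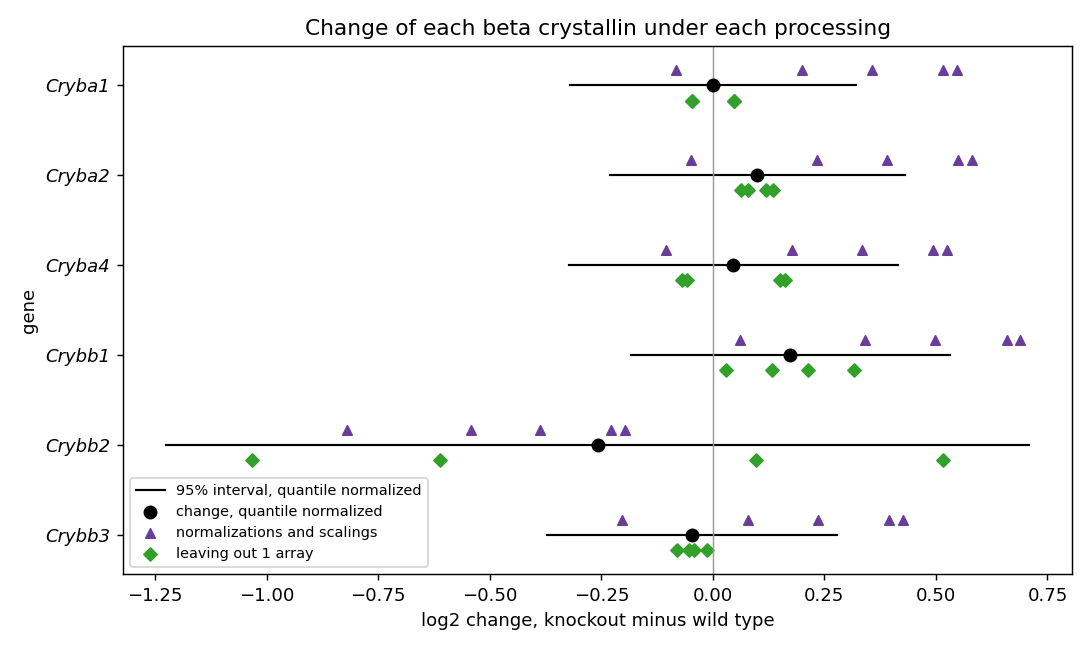
Log2 change, knockout minus wild type, of each beta crystallin after quantile normalization (black point with limma's 95% interval), under 5 other normalizations or scalings (triangles) and with each array left out (diamonds). All 6 black intervals include 0; the triangles of Cryba1, Cryba2, Cryba4 and Crybb3 lie on both sides of 0, and the diamonds of Crybb2 spread from -1.03 to 0.52.

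Setting the members against each other removes an array's scale factor, but not the dependence on brightness. Each gene's deposited log2 intensity was set against the mean of the 6 on the same array. On that scale Crybb2 stood at -0.42 and -2.42 on the knockout arrays, against -0.45 and -1.13 on the wild-type arrays. Its relative change was 0.03 within number 1 and -1.29 within number 2. The value within number 2 is not corrected for the lower ratio that other probe sets of its brightness had on the same arrays, a median of -0.94 where Crybb2 lies and -0.34 where Cryba4 lies. Against those medians Crybb2 had -0.73 and Cryba4 had 0.17 within number 2. With 2 arrays against 2, an exact permutation test (two-sided) cannot go below a p of 0.33, so no p is given.

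Because Crybb2 lowers the family mean on the arrays numbered 2, the other genes were also set against the mean of the 5 without it. Their relative changes then ran from -0.13 for Crybb3 to 0.14 for Crybb1. Crybb1 stood at -0.01 and 0.24 on the knockout arrays, against -0.04 and 0.00 on the wild-type arrays, and Crybb3 stood at -0.01 and -0.12, against 0.02 and 0.11. The groups did not overlap for Crybb3, and they did for Crybb1. The relative changes of Cryba1, Cryba2 and Cryba4 were -0.01, 0.03 and -0.03.

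Groups did not overlap after quantile normalization for 2 of the 6 genes, Cryba2 higher and Crybb3 lower, against 27.0% of all probe sets tested, made up of 12.6% higher and 14.4% lower. A share of 2 in 6 is near that background. That split depended on the scaling, with 2847 higher and 3233 lower after quantile normalization, 61 and 1159 with the values as deposited, and 1456 and 4109 with median scaling. The median log2 change over the 6 was 0.02, and that over all probe sets tested was -0.01.

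The normalized changes of the other lens crystallins lay between those of Crybb2 (-0.26) and Crybb1 (0.17). The lowest among the 5 beta crystallins without Crybb2 was -0.05. Cryaa, an alpha crystallin and small heat shock protein, had a normalized log2 change of 0.08, and Cryab, the other alpha crystallin, had -0.24. The 6 gamma crystallins with a probe set of their own ranged from -0.13 for Crygf to 0.13 for Crygn, with Cryga at 0.11, Crygb at -0.11, Crygd at -0.03 and Crygs at -0.05. None of these 8 genes passed the threshold, and their sets had medians of -0.08 and -0.04. Groups did not overlap for Cryaa, Cryga and Crygn, each higher, and for Cryab, lower. Over all probe sets tested, 12.6% stood higher and 14.4% lower without overlap. Cryab had -0.11 within number 1 and -0.81 within number 2 on the deposited scale, the widest gap of the 8 between the numbers, though smaller than that of Crybb2. Of the distant relatives with a beta-gamma fold, Crybg3 was the 1 above the filter, with a log2 change of -0.18.

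Genes of the cells that make beta crystallins were read in the same fit. In the lens fibre list, 0 of 12 genes passed the threshold (limma) and the groups did not overlap for 2 genes higher and 2 lower, against 12.6% and 14.4% of all probe sets tested, while 0.0178% of all passed. Mip, the main fibre membrane protein, had a log2 change of 0.29 and Grifin, a lens galectin relative, 0.15. Bfsp1, filensin of the beaded filament, had -1.06 (SE 0.21) and Dnase2b, the nuclease of fibre cell nuclei, had -1.25 (SE 0.36). Bfsp2, in the same list, had 1.00 (SE 1.25) with overlapping groups, at -1.37 within number 1 and 3.36 within number 2. It was named after its values were seen. Bfsp1 was also the one other probe set of the 134 whose deposited ratio within number 2, -1.87, lay below that of Crybb2, but it had -1.32 within number 1, where Crybb2 had 0.01.

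Transcription factors known to act on crystallin promoters, Hsf4 among them, gave 0 of 19 genes past the threshold (limma), with 3 higher and 1 lower without overlap, against 12.6% and 14.4% of all probe sets tested, and a median log2 change of 0.06. Mafg, a small Maf partner, had 0.41, Atf4 had 0.28 and Tfap2b, a factor of lens epithelium, had -0.70. Maf itself, which encodes c-Maf, measured 2432 and 442 on the knockout arrays and 3185 and 999.2 on the wild-type arrays as deposited, with a normalized change of -0.15 and overlapping groups. Pax6, the eye master regulator, had -0.05, Sox1 had -0.36 and Prox1 had 0.44, each with overlapping groups. These 4 were named after their values were seen, because they are textbook regulators of crystallin genes.

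The probe sets most like the family were sought among 341 with 1 gene symbol and a mean rank within 500. Likeness was the root mean square difference, over the 4 arrays, from the mean centred log2 profile of the 6 genes. The closest were Rpl4 at 0.0088, Cd24a at 0.024, Rps18 and Psmb7 at 0.040 and 0.041, and Rps10 at 0.047. The family profile itself was 0.49 and -0.70 on the knockout arrays, against 0.51 and -0.31 on the wild-type arrays, and these 4 points share each array's overall scale. On knockout array 2 Crybb2 stood at -2.01 and the other 5 members between -0.60 and -0.24, so Crybb2 pulled the mean below each of them. Likeness was thus to this averaged profile and not to any 1 member. Measured against that mean, Cryba4 was the closest member at 0.077 and Crybb2 the farthest at 0.81.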

How the data were processed

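RNA of newborn lenses was read on 1-colour Affymetrix arrays, and the linear intensity values are those the authors deposited. The sources used here do not name the software that summarised the probes or any background correction. Because the deposited values differed in scale, quantile normalization was applied (limma 3.58.1, R 4.3.3), 16 was added and log2 was taken. After the 64 control probe sets were left out, 22519 of 45037 had a mean log2 value at or above the median, 4.86, and were tested with limma's moderated test with a variance trend and Benjamini-Hochberg adjustment. The fit had no block for the array number. Only the moderated test was tried on simulated data, drawn as independent normal values. Those data passed through no normalization or filter, and held no effect of array number or brightness on the ratio. Gene names came from the platform annotation, in which 34945 probe sets had 1 symbol, 932 several and 9160 none. Named genes were the 6 beta crystallins, the alpha and gamma crystallins, and up to 2 genes per direction in each other list whose groups did not overlap, except where stated; not all were described. The members and lists were chosen with earlier results of these data known. The number of arrays limits the precision. The alternatives were 5 other scalings, 2 filters, 2 offsets, a fit without the variance trend, the block, and each array left out. Scaling to the 100 brightest probe sets, and the family mean without Crybb2, were chosen after seeing the data.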

Additional observations from a re-analysis of the deposited data

How the results depend on the processing

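None of the 6 beta crystallins passed the threshold in limma under 14 of the 15 alternative settings, and 1 passed, Crybb2, without knockout array 1 (log2 -1.03, adjusted p = 0.00626). Crybb2 turned to 0.52 without knockout array 2 and to 0.10 without wild-type array 1. With values as deposited Cryba2 was -0.049 and Cryba4 -0.10, and Cryba4 ranged from -0.069 (wild-type array 2 left out; -0.058 with knockout array 1 left out) to 0.16. Crybb3 was 0.24 with median, 0.43 with trimmed-mean and 0.40 with 99th-percentile scaling and 0.079 when scaled to the 100 brightest other probe sets. The family mean moved to -0.20 with values as deposited and to 0.24, 0.43 and 0.40 with those 3 scalings, and ranged from -0.11 to 0.11 with 1 array left out. With the replicate block, Crybb2 had the lowest adjusted p of the 6, 0.57. Over all probe sets 4 passed, against 0 with values as deposited, 2 with median scaling, 0 with 99th-percentile scaling, 0 without the filter, 12 when scaled to the 100 brightest, 317 with the replicate block and 5 to 649 with 1 array left out (649 without knockout array 1 and 95 without knockout array 2). In the block fit, the fit of values as deposited and the fits without knockout array 1 or 2, limma's variance came from the trend alone. The array number is not stated to pair samples: deviations from the group means correlated at 0.43 across probe sets within a number. Relative to the family mean, Cryba4 was -0.021 within number 1, 0.22 within number 2 and -0.029 against the 5 genes without Crybb2. Averaging several probe sets per gene was not run, since each gene had 1. Beyond these settings the cause of each difference was not tested. The counts at an unadjusted p under 0.05 were 22 with values as deposited, 377 with 99th-percentile scaling and 1432 without the filter.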
